A study of Mus musculus with 8 samples.

Results

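The expression of 9 genes in asrij KO and control HSCs is described, out of 39107 mouse genes with at least 1 read in any library. They are the transcription regulators Prdm16, Mecom, Runx1, Hoxa9, Meis1, Mllt3, Hlf and Gfi1, and the membrane protein gene Pdzk1ip1. They were chosen by symbol as genes of HSC identity, with earlier results of these data known. Where a gene has several deposited transcripts, the one with the most reads over all libraries stands for it. All 9 passed edgeR's filter on low counts, which kept 21902 genes. RNA was sequenced from LT-HSCs (the HSCs that sustain blood formation over a long term) of 4 independent asrij KO mice, which lack the gene Ociad1 in the whole body, and of 4 homozygous asrij floxed mice, the controls, whose alleles carry loxP sites. The labels give an age of 6 months for all 8 libraries, and the study used mice of both sexes without giving the sex of each library. The libraries are numbered 1, 3, 4 and 5 for floxed mice and 2, 3, 4 and 5 for KO mice. The methods for these libraries name a sort for Lin- Sca1+ Kit+ cells with CD150+ CD48+, while other sorts of LT-HSCs in the study used CD48-.

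HSCs keep their identity through a network of DNA-binding regulators that hold genes of self-renewal active and genes of differentiation silent. Prdm16 and Mecom belong to the PRDM family of zinc finger proteins and are needed to maintain HSCs. Runx1 starts definitive blood formation and is transcribed from a distal promoter (P1) and a proximal promoter (P2). Hoxa9 is a homeodomain protein that binds DNA with Meis1, a TALE homeodomain cofactor, and Mllt3 is a subunit of the super elongation complex that reads acylated histones. Hlf is a PAR bZIP factor used as a marker of HSCs, and Gfi1 is a repressor that restrains HSC proliferation and directs granulocyte development. Pdzk1ip1 encodes MAP17, a small membrane protein that binds the scaffold PDZK1, and its locus has been used to label mouse HSCs.

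Promoters from RefSeq (GRCm38.p6, 250 bases before to 50 bases after a start) were found for all 9 genes, 13 in total, with 2 each for Mecom, Mllt3, Gfi1 and Runx1. Among the 78 pairs of these promoters, Prdm16 and the distal Mecom promoter shared the longest identical run, of 24 bases, and the next longest was 15 bases, between both Mecom promoters. The run lies downstream of both starts, at base 260 of the Prdm16 window and base 277 of the Mecom window. Of 32851 promoters of this length, 2 hold the run on the same strand and 0 on the other. They are shown because these genes are the PRDM members whose reads are compared below, with the shared run in capitals. The Prdm16 window is chr4:154636824-154637123 and the Mecom window chr3:30509710-30510009, both on the minus strand.
Prdm16: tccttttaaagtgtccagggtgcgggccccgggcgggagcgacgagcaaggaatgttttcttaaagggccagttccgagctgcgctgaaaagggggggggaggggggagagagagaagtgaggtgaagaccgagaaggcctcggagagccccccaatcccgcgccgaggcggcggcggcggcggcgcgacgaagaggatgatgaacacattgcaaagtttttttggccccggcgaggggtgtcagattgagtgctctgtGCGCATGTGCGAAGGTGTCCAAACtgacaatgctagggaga
Mecom: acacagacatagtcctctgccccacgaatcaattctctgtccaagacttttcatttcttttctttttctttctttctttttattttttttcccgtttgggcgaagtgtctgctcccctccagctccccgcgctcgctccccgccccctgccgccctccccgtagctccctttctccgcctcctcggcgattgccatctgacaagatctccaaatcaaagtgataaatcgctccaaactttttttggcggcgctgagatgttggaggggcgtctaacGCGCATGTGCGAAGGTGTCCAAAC

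For Runx1, the window at P1 (chr16:92826025-92826324, minus strand) is shown because transcripts from P1 and P2 are compared below. It holds 2 matches to the RUNX letters TGTGGT, read as ACCACA on the other strand and in capitals here. These letters occur on either strand in 16.8% of all promoters, and 2 of the 13 promoters hold them. The window at P2 (chr16:92697280-92697579, minus strand) held none of the 6 motifs searched. For Pdzk1ip1, the gene with the largest difference, the window is chr4:115088458-115088757 on the plus strand. Its capitals mark an E-box, CAGCTG (16.3% of all promoters), and CTGTCA, the reverse complement of the MEIS letters TGACAG (19.2% of all promoters). The other motifs searched were AGATAA, bound by erythroid factors of the GATA family (11.2% of all promoters), GGAAGT of the ETS family (23.8%) and the PAR bZIP letters TTACGTAA (0.119%). A match describes letters only.
Runx1 P1: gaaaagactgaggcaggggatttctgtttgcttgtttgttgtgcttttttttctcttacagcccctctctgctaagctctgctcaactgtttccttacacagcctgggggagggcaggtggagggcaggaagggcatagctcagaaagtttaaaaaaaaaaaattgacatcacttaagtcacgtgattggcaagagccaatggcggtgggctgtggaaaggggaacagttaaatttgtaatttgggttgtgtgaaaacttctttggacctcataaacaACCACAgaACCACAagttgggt
Pdzk1ip1: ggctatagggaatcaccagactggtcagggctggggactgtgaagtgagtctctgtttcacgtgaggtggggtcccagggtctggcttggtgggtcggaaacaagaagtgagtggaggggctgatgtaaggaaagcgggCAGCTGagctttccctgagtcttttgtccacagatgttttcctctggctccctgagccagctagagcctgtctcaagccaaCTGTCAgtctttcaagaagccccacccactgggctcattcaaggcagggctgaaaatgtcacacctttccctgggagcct

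Library totals ran from 23412829 to 44874882 gene counts, and values are given in CPM, the reads of a gene relative to a library size scaled by TMM, edgeR's normalization. Ociad1, the targeted gene, had 31.3 to 66.9 CPM in floxed and 11.7 to 19.7 CPM in KO libraries. Floxed replicate 3, the deepest library, stood apart from the other floxed libraries, with a summed neutrophil marker level of 16280 CPM against 44611 to 50473 CPM, and 191 against 68.1 to 69.1 CPM for stromal and endothelial markers. Each gene is therefore also given without it. Libraries numbered 4 and 5 also deviated together from the means of their genotypes, and differences within numbers 1 to 3 and within 4 and 5 are given where they bear on a result. As a check of the HSC label, 11 of 12 stem and progenitor markers passed the filter, and their sum was 115.1 to 126.3 CPM in floxed and 117.2 to 137.2 CPM in KO libraries. Most of this sum came from Kit, Cd34 and Flt3, which progenitors also express, with floxed means of 56.0, 30.1 and 14.8 CPM. Markers closer to LT-HSCs were low, with floxed means of 0.344 CPM for Procr and 0.423 CPM for Fgd5. Hoxb5, at 0.103 CPM, was the marker that did not pass the filter. Of the 11 that did, 8 had a log2 fold change, KO over floxed, above 0 and 3 below, with a median of 0.70. Slamf1, which encodes CD150, had 0.881 to 2.19 CPM in floxed and 1.56 to 4.39 CPM in KO libraries. The libraries also held haemoglobin transcripts, at 2.85 to 7.67% of gene counts in floxed and 12.2 to 24.3% in KO libraries, and neutrophil markers summing to 24052 to 30657 CPM in KO libraries. Reads were counted without strand, and 6 of the 9 genes overlap other genes with reads, whose totals reach at most 7.95% of the total of the gene (in Mecom). Below, LT-HSC is the label of the sort, and each value is of the whole RNA of a library. That RNA also held many transcripts of erythroid and neutrophil genes, so a value is not that of stem cells alone. In bulk RNA, fewer cells of a type and less RNA per cell cannot be told apart.

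The comparison addresses whether genes of HSC identity differ between KO and floxed LT-HSCs. Pdzk1ip1 rose in KO LT-HSCs, and no other of the 9 genes passed an adjusted p-value of 0.05 (edgeR's quasi-likelihood test with Benjamini-Hochberg adjustment over all tested genes), the rule that 2.97% of all tested genes passed. Pdzk1ip1 was also past the study's fold threshold, an absolute log2 fold change above 1.5, where both thresholds together were met by 1.19% of all tested genes (0.452% with KO higher, 0.74% with KO lower). With libraries scaled by total gene counts its log2 fold change was 1.39, and none of the 9 genes met both thresholds. By sign, 4 genes (Pdzk1ip1, Mllt3, Hoxa9 and Meis1) were above 0 and 5 (Prdm16, Gfi1, Hlf, Mecom and Runx1) below 0. The median log2 fold change was -0.21 over the 9 genes and -0.01 over all tested genes. For 3 of the 9 genes (Pdzk1ip1, Prdm16 and Runx1) the ranges of the genotypes were separate, against 14.8% of all tested genes, 7.1% with KO above and 7.66% with KO below. At an unadjusted p under 0.05 there were 2 genes, Pdzk1ip1 and Prdm16, where 21.8% of all tested genes lay below that limit.

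**Figure D1:**
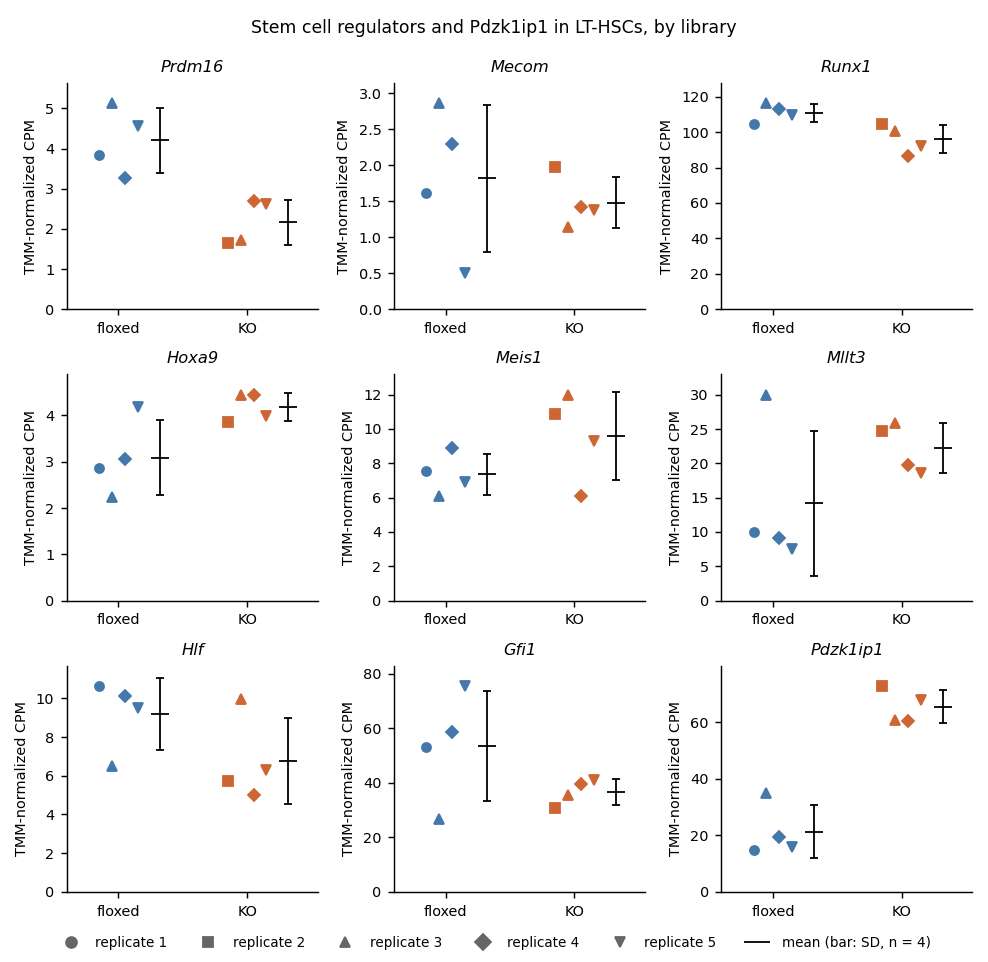
TMM-normalized CPM (y axis, from 0) of the 9 genes in each floxed (blue) and KO (orange) library, with the replicate number as the marker shape and the mean and SD (n = 4) in black. Pdzk1ip1 sits between 60.4 and 72.7 CPM in KO libraries and at or below 35.1 CPM in floxed libraries, while floxed replicate 3 is highest for Mllt3 at 30.0 CPM and lowest for Gfi1 at 26.9 CPM.

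Pdzk1ip1 (chr4:115088723-115093899, plus strand, 4 exons, GRCm38) had 14.8, 35.1, 19.5 and 16.0 CPM in floxed libraries 1, 3, 4 and 5, against 72.7, 60.9, 60.4 and 67.7 CPM in KO libraries 2, 3, 4 and 5. Every KO library was above every floxed library, and floxed replicate 3 was the floxed library nearest to the KO group. Floxed LT-HSCs averaged 21.3 ± 9.39 CPM and KO LT-HSCs 65.4 ± 5.88 CPM (SD, n = 4 each), for a log2 fold change of 1.61 (SE, the standard error, 0.27, adjusted p = 0.0245). The difference in log2(CPM + 1) was 1.501 within numbers 1 to 3 and 1.800 within numbers 4 and 5. It was 0.78 between the libraries numbered 3, 1.58 between those numbered 4 and 2.02 between those numbered 5.

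The call for Pdzk1ip1 depended on the libraries, as did the number of all tested genes that passed. Without floxed replicate 3 the log2 fold change was 1.98 (adjusted p = 0.000261), where 3875 of 22094 genes passed. Leaving out any of the other 7 libraries kept it between 1.504 and 1.68, with adjusted p-values from 0.0541 to 0.0736, all above the threshold. In these 7 fits 61 to 264 of all tested genes passed, against 651 of 21902 with all libraries. With the replicate number as a block over the 6 libraries numbered 3 to 5, the log2 fold change was 1.52 (adjusted p = 0.104). That block left 48 of 21600 genes past the threshold. With a block for numbers 4 and 5 over all 8 libraries, the log2 fold change was 1.63 (adjusted p = 0.00486). There 4059 of 21902 genes passed. When each deposited transcript was tested on its own, 7 of the 8 Pdzk1ip1 transcripts passed, where 3.62% of 82560 transcripts did. The exception had a log2 fold change of 1.23 (adjusted p = 0.287). These transcripts share most of their reads. Counted on its shortest transcript, the gene had a log2 fold change of 1.17 (adjusted p = 0.0758).

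The erythroid and megakaryocyte markers were also higher by sign in KO LT-HSCs. The summed level of the 12 erythroid markers was 27836 to 70268 CPM in floxed and 122340 to 295231 CPM in KO libraries, with all 12 above 0 in log2 fold change and 3 past the adjusted threshold, where 1.22% of all tested genes passed in this direction. These were the globin genes Hba-a1 (log2 fold change 2.32) and Hbb-bt (2.16) and the erythroid transcription factor Klf1 (1.85). The 7 megakaryocyte markers summed to 65.3 to 131.8 CPM in floxed and 216.6 to 259.5 CPM in KO libraries, and 6 passed, all higher in KO. The 4 with the smallest adjusted p-values were Pf4, the chemokine platelet factor (log2 fold change 2.27), Itga2b, the integrin chain CD41 (1.27), Gp6, a collagen receptor (2.35), and Gp1ba, a von Willebrand factor receptor chain (1.58). With the replicate number as a block, 0 erythroid markers and 1 megakaryocyte marker, Pf4, passed, where 28 of 21600 genes passed with KO higher. The numbers were 12 erythroid and 6 megakaryocyte markers without floxed replicate 3. In that fit 1967 of 22094 tested genes passed with KO higher. With any other library left out the numbers were 0 and 2 to 4, where 40 to 90 of all tested genes passed in this direction. None of these 19 markers was at 0 in all libraries. Their part in the result was not tested. With haemoglobin genes left out of the fit, the log2 fold change of Pdzk1ip1 was 1.61 (adjusted p = 0.0221). That fit kept all other erythroid genes, so it is no measure of the part of red cell RNA. Esam, an adhesion molecule on the list of stem and progenitor markers, also passed, with a log2 fold change of 1.59 (adjusted p = 0.0211, or 0.117 with the replicate number as a block). It also passed without floxed replicate 3 or 4, and not with any other library left out (adjusted p-values from 0.0558 to 0.0841).

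The genes whose pattern over the 8 libraries was most like that of Pdzk1ip1, by the root mean square difference of centred log2(CPM + 1) among 10354 genes, were Urod at 0.103, Fcna at 0.112 and Cldn13 at 0.149. Urod, an enzyme of heme synthesis, had 43.4 to 115.0 CPM in floxed and 170.2 to 191.6 CPM in KO libraries, a log2 fold change of 1.46 (SE 0.29, adjusted p = 0.0338). Fcna encodes ficolin A, a lectin of the complement system. It overlaps 1 other gene, and its log2 fold change was 1.54 (SE 0.33, adjusted p = 0.0441). Cldn13, a claudin of erythroid cells in mice, had a log2 fold change of 1.57 (SE 0.34, adjusted p = 0.0422). All 3 calls were lost with the replicate number as a block (adjusted p = 0.122, 0.122 and 0.127), with libraries scaled by total gene counts (0.0645 to 0.0769), and with any library other than floxed replicate 3 left out (0.0751 to 0.110). As in Pdzk1ip1, floxed replicate 3 was the highest floxed library for all 3 genes. The likeness was measured over the same libraries as the fold changes, and no test was made of it. Among the other 8 genes, Mllt3 was nearest to Pdzk1ip1 at 0.505, rank 377, and Gfi1 farthest at 1.27.

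**Figure D2:**
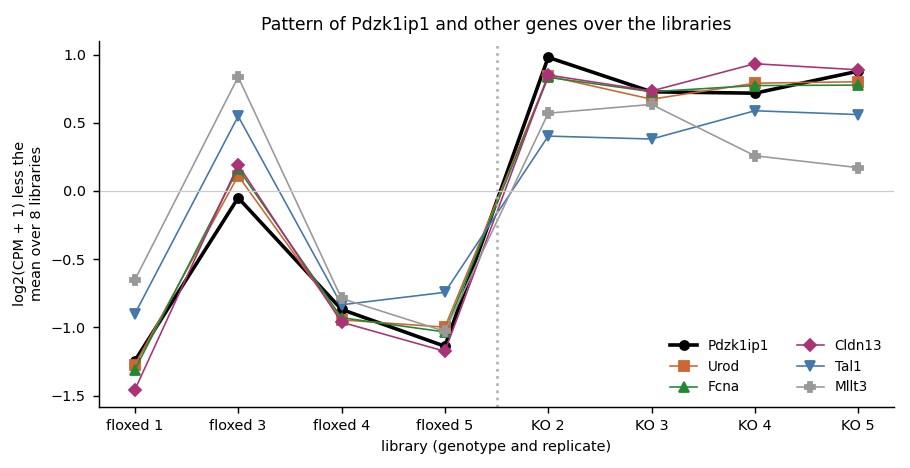
Log2(CPM + 1) less the mean of each gene over the 8 libraries (y axis) for Pdzk1ip1, the 3 genes nearest to it in pattern, Tal1 and Mllt3, by library (x axis, floxed left and KO right of the dotted line). Lines only join the points of a gene. Floxed replicate 3 lies near the mean for Pdzk1ip1, at -0.05, and above it for Mllt3, at 0.84.

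Of the genes near Pdzk1ip1, 2 lie within 100 kb and passed the filter. Tal1, a basic helix-loop-helix regulator of blood and red cell formation, lies 16953 bases away on the same strand. It had 81.5, 224.3, 85.5 and 91.1 CPM in floxed libraries 1, 3, 4 and 5, against 202.7, 199.7, 230.7 and 226.2 CPM in KO libraries 2, 3, 4 and 5. The groups overlapped only through floxed replicate 3. The log2 fold change of Tal1 was 0.83 (SE 0.32, adjusted p = 0.172) with all libraries and 1.33 (adjusted p = 0.000366) without that library. Stil, a centriole protein gene, had a log2 fold change of -0.15 (adjusted p = 0.831). Of the 5 PDZK1IP1 partners tested, none passed the adjusted threshold. The ranges of the genotypes were separate for 1, Smad4, the shared mediator of TGF-β signalling, picked after its values were seen. Smad4 had 47.1 to 61.6 CPM in floxed and 34.2 to 36.3 CPM in KO libraries. Its log2 fold change was -0.55 (adjusted p = 0.0605). Of all tested genes, 7.66% had separate ranges with KO below. Pdzk1, the scaffold itself, had 12.3 ± 4.50 CPM in floxed LT-HSCs and 12.5 ± 0.97 CPM in KO LT-HSCs (SD, n = 4 each). Slc5a2, the renal glucose transporter that MAP17 activates, had the largest value of the list, a log2 fold change of 0.83 (adjusted p = 0.222).

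Prdm16 (chr4:154316125-154636866, minus strand, 17 exons) had 3.85, 5.13, 3.27 and 4.56 CPM in floxed libraries 1, 3, 4 and 5, against 1.64, 1.72, 2.70 and 2.61 CPM in KO libraries 2, 3, 4 and 5. All KO libraries were below all floxed libraries. Floxed LT-HSCs averaged 4.20 ± 0.81 CPM and KO LT-HSCs 2.17 ± 0.56 CPM (SD, n = 4 each), for a log2 fold change of -0.96 (SE 0.27, adjusted p = 0.0798). These values rest on 64 to 271 reads in a library. The adjusted p-value was 0.0128 with DESeq2, 0.0237 with the block for numbers 4 and 5, 0.0448 with libraries scaled by total gene counts, and 0.240 when blocked by replicate number. Of 21902 tested genes, 2447, 4059 and 908 passed in the first 3 of these fits, against 651 in the fit that gave 0.0798. Without floxed replicate 3 the log2 fold change was -0.84 (adjusted p = 0.0622). The difference in log2(CPM + 1) was -1.03 within numbers 1 to 3 and -0.42 within numbers 4 and 5. For reads on the 160.3 kb from the 5′ end alone, which a nested transcript covers, the log2 fold change was -1.07 (adjusted p = 0.0617).

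Mecom (chr3:29951299-30509733, minus strand, 16 exons) had the fewest reads of the 9 genes, 13 to 151 in a library. It had 1.61, 2.86, 2.30 and 0.498 CPM in floxed libraries 1, 3, 4 and 5, against 1.97, 1.14, 1.42 and 1.38 CPM in KO libraries 2, 3, 4 and 5. All KO values lay within the floxed range. The log2 fold change was -0.30 (SE 0.47, adjusted p = 0.760), and 0.023 without floxed replicate 3, so its sign was not settled at this depth. Reads upstream of the internal Evi1 start ranged from 2 to 107 in a library, which leaves the balance of the long (Mds1-Evi1) and short (Evi1) forms undetermined here.

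The PRDM family beside these genes was lower by sign in KO LT-HSCs. Of 13 listed genes, 8 passed the filter, all 8 had a log2 fold change below 0 (4 of 8 without floxed replicate 3), and 2 fell, where 1.75% of all tested genes passed in this direction. The median log2 fold change was -0.25, against -0.01 over all tested genes. Prdm1, which encodes BLIMP1, the repressor that drives plasma cell differentiation, had 2.67 to 3.88 CPM in floxed and 1.26 to 1.78 CPM in KO libraries, a log2 fold change of -1.20 (SE 0.25, adjusted p = 0.0383). Prdm2, which encodes the histone methyltransferase RIZ, had 85.8 to 110.8 CPM in floxed and 57.2 to 67.9 CPM in KO libraries, a log2 fold change of -0.67 (SE 0.14, adjusted p = 0.0411). With the replicate number as a block their adjusted p-values were 0.175 and 0.196, and without floxed replicate 3 they were 0.0055 and 0.00254. Leaving out any other library gave 0.0751 to 0.130 for Prdm1 and 0.0798 to 0.147 for Prdm2, above the threshold. Without the filter on low counts neither passed (adjusted p = 0.0734 and 0.0955), where 750 of 39107 genes did. Of the list, 0 passed when counted on the shortest transcript and 1 when transcripts were summed. With DESeq2 or libraries scaled by total gene counts, 3 passed. Prdm2 overlaps 3 other genes with reads. The summed level of the 13 genes was 179.2 to 195.1 CPM in floxed and 128.3 to 139.1 CPM in KO libraries, with Prdm2 the largest part. Of the 10 B and plasma cell markers, 7 were above 0 in log2 fold change. Jchain, the antibody joining chain, fell, with a mean of 109.5 ± 37.8 CPM in floxed LT-HSCs and 34.7 ± 5.97 CPM in KO LT-HSCs (SD, n = 4 each). The plasma cell marker Mzb1 had 7.73 to 11.1 CPM in floxed and 13.2 to 14.3 CPM in KO libraries, a log2 fold change of 0.45 (adjusted p = 0.163). Sdc1, which encodes CD138, had a log2 fold change of 0.03 (adjusted p = 0.970). The part of plasma cells in the Prdm1 value was not tested.

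Runx1 (chr16:92601466-92826149, minus strand, 8 exons) had 104.6, 116.2, 113.0 and 109.9 CPM in floxed libraries 1, 3, 4 and 5, against 104.5, 100.5, 86.6 and 92.4 CPM in KO libraries 2, 3, 4 and 5. The groups did not overlap, but the lowest floxed and the highest KO library were almost level. The log2 fold change was -0.21 (SE 0.13, adjusted p = 0.396), and -0.17 (adjusted p = 0.332) without floxed replicate 3.

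Counts on 2 nested Runx1 transcripts were then compared, a choice made after the values had been seen. The transcript from P2 covers 93.7 kb and ends 2.19 kb short of the 3′ end of the gene. The other starts 371 bases inside the P1 start and ends 1.74 kb past P2, over 130.2 kb, so both count the reads of that short overlap. The files count introns, and reads on the transcript from P2 can come from RNA of either promoter. On the transcript from P2 there were 54.4, 49.1, 49.0 and 64.0 CPM in floxed libraries 1, 3, 4 and 5, against 28.6, 27.7, 35.3 and 40.7 CPM in KO libraries 2, 3, 4 and 5. All KO values were below all floxed values. In the fit across all transcripts, its log2 fold change was -0.64 (SE 0.20, adjusted p = 0.0978), which did not pass. Its adjusted p-value was 0.159 with the replicate number as a block, 0.00817 with the block for numbers 4 and 5 and 0.0377 without floxed replicate 3. Many features pass in the last 2 settings. In the fits of genes, 4059 of 21902 and 3875 of 22094 passed there. On the transcript from P1 to just past P2 there were 25.8, 49.3, 30.5 and 29.5 CPM in floxed libraries 1, 3, 4 and 5, against 46.0, 42.5, 30.7 and 32.3 CPM in KO libraries 2, 3, 4 and 5. Here floxed replicate 3 was above every KO library, and the other floxed libraries were below them. It gave a log2 fold change of 0.25 (SE 0.21, adjusted p = 0.525), and 0.41 (adjusted p = 0.175) without that library. Reads on neither transcript, at the 3′ end and at the first bases of P1, came to at least 16.4 to 33.5 CPM in floxed and 19.5 to 30.3 CPM in KO libraries.

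The share of Runx1 reads on the transcript from P1 to just past P2 was 24.7, 42.5, 26.98 and 26.8% in floxed libraries 1, 3, 4 and 5, against 44.0, 42.3, 35.4 and 34.97% in KO libraries 2, 3, 4 and 5. The groups overlapped only through floxed replicate 3. The mean was 30.2 ± 8.22% in floxed LT-HSCs and 39.2 ± 4.64% in KO LT-HSCs (SD, n = 4 each) (exact two-sided permutation test, p = 0.114, or 0.171 after Benjamini-Hochberg adjustment over the 3 genes divided into parts, Runx1, Mecom and Gfi1). The smallest p that 4 against 4 libraries allow is 0.0286. The KO share was higher by 9.57 percentage points within numbers 1 to 3 and by 8.28 points within numbers 4 and 5, lower by 0.206 points between the libraries numbered 3, and higher by 13.0 points without floxed replicate 3. For Gfi1 the share of reads upstream of a later start was 4.22 ± 1.02% (SD, n = 4) in floxed and 2.92 ± 0.55% (SD, n = 4) in KO LT-HSCs, with overlapping ranges. This upstream part held 25 to 84 reads in a library. It overlaps A430072P03Rik, a gene on the other strand, whose reads it may include.

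**Figure D3:**
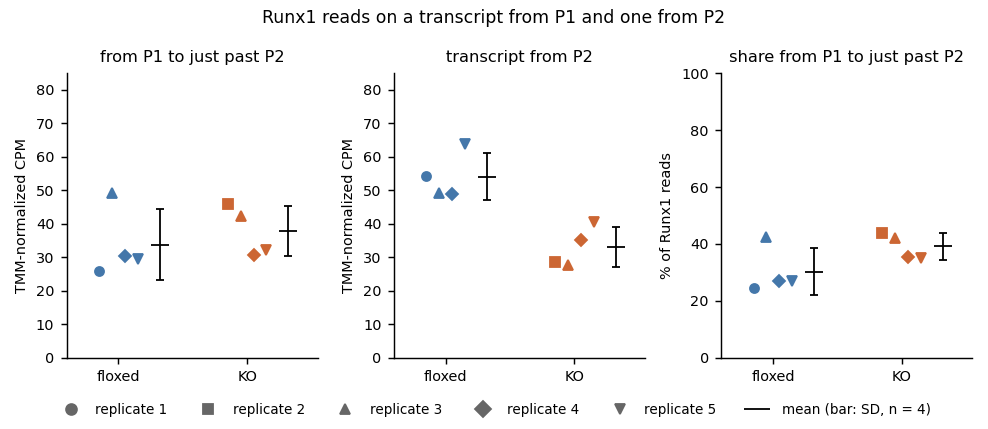
Runx1 reads on the transcript from P1 to just past P2 and on the transcript from P2 (y axes, TMM-normalized CPM), and the share of Runx1 reads on the former (y axis, %), in each floxed and KO library, with the mean and SD (n = 4). KO libraries lie at 27.7 to 40.7 CPM on the transcript from P2, below all floxed libraries, while floxed replicate 3 lies among the KO libraries in the share.

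Of 15 cofactors and relatives of Runx1 and Gfi1, none passed the adjusted threshold, and 9 were below 0 in log2 fold change. Gfi1b, the relative of Gfi1 that acts in red cells and platelets, had the largest value, with 24.6 ± 15.7 CPM in floxed LT-HSCs and 50.3 ± 11.4 CPM in KO LT-HSCs (SD, n = 4 each), for a log2 fold change of 1.03 (adjusted p = 0.164). Cbfb, the partner that stabilizes Runx1 on DNA, had 111.4 to 160.8 CPM in floxed and 66.7 to 95.6 CPM in KO libraries, a log2 fold change of -0.66 (adjusted p = 0.0843), and was named after its values were seen.

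Hoxa9 (chr6:52223100-52227370, minus strand, 2 exons) had 2.87, 2.23, 3.06 and 4.18 CPM in floxed libraries 1, 3, 4 and 5, against 3.87, 4.45, 4.43 and 3.99 CPM in KO libraries 2, 3, 4 and 5. The groups overlapped only through floxed replicate 5. The log2 fold change was 0.44 (SE 0.24, adjusted p = 0.323). Meis1 (chr11:18880662-19018958, minus strand, 13 exons) had 7.54, 6.09, 8.89 and 6.90 CPM in floxed libraries 1, 3, 4 and 5, against 10.9, 11.99, 6.10 and 9.31 CPM in KO libraries 2, 3, 4 and 5. KO replicate 4 lay with the floxed libraries. The log2 fold change of Meis1 was 0.38 (SE 0.24, adjusted p = 0.386), and its difference in log2(CPM + 1) was 0.68 within numbers 1 to 3 and -0.05 within numbers 4 and 5. Without floxed replicate 3 the log2 fold changes were 0.32 for Hoxa9 (adjusted p = 0.325) and 0.31 for Meis1 (adjusted p = 0.432).

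Of 18 listed HOXA genes and HOX cofactors, 12 passed the filter and 1 fell, where 1.75% of all tested genes passed in this direction. This was Pknox2, a TALE homeodomain gene like Meis1, with 2.59 to 5.31 CPM in floxed and 1.09 to 1.38 CPM in KO libraries and a log2 fold change of -1.63 (SE 0.31, adjusted p = 0.0316, or 0.156 with the replicate number as a block). The call held without floxed replicate 3 and was lost with any other library left out (adjusted p-values from 0.0642 to 0.119). Pknox2 overlaps 2 other genes with reads. By sign, 8 of the 12 were above 0, with a median of 0.34. In and around the HOXA cluster, 8 annotated genes lay within 100 kb of Hoxa9 and passed the filter, with log2 fold changes from 0.02 for Hoxa7 to 1.37 for Hoxa5 (adjusted p = 0.134 for Hoxa5), and none passed the adjusted threshold. These are not independent values, as some of the genes overlap and share reads. Hoxa3, Hoxaas3 and Gm28308 cover nearly the same bases and had log2 fold changes of 0.49, 0.52 and 0.50.

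Mllt3 (chr4:87769925-88033364, minus strand, 11 exons) had 10.05, 30.0, 9.06 and 7.51 CPM in floxed libraries 1, 3, 4 and 5, against 24.8, 26.0, 19.8 and 18.6 CPM in KO libraries 2, 3, 4 and 5. Floxed replicate 3 was above every KO library, and the other floxed libraries were all below them. Floxed LT-HSCs averaged 14.2 ± 10.6 CPM and KO LT-HSCs 22.3 ± 3.65 CPM (SD, n = 4 each), for a log2 fold change of 0.65 (SE 0.41, adjusted p = 0.398). Without floxed replicate 3 it was 1.34 (SE 0.18, adjusted p = 0.00222). In that fit 3875 of 22094 tested genes passed the adjusted threshold, against 651 of 21902 with all libraries. The difference in log2(CPM + 1) was 1.12 within numbers 4 and 5, 0.51 within numbers 1 to 3 and -0.20 between the libraries numbered 3. Of the 20 partners of Mllt3, in the super elongation complex, the DOT1L complex and the KMT2A complex, all were tested and none passed. Aff4, the scaffold of the super elongation complex, had the largest value, with 57.0 ± 12.9 CPM in floxed LT-HSCs and 34.0 ± 3.45 CPM in KO LT-HSCs (SD, n = 4 each), for a log2 fold change of -0.75 (adjusted p = 0.0591).

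Hlf (chr11:90336536-90390895, minus strand, 4 exons) had 10.6, 6.49, 10.1 and 9.50 CPM in floxed libraries 1, 3, 4 and 5, against 5.74, 9.99, 5.002 and 6.30 CPM in KO libraries 2, 3, 4 and 5. Floxed replicate 3 lay near the lower KO libraries and KO replicate 3 near the other floxed libraries. The log2 fold change was -0.44 (SE 0.26, adjusted p = 0.365), and -0.56 (adjusted p = 0.152) without floxed replicate 3. None of the 3 other PAR bZIP and related genes passed. Dbp, a clock-controlled member, had the largest value, a log2 fold change of 0.92 (adjusted p = 0.227).

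Gfi1 (chr5:107716666-107725805, minus strand, 7 exons) had 53.2, 26.9, 58.6 and 75.5 CPM in floxed libraries 1, 3, 4 and 5, against 30.6, 35.5, 39.4 and 41.1 CPM in KO libraries 2, 3, 4 and 5. Floxed replicate 3 was below every KO library, and the other floxed libraries were all above them. Floxed LT-HSCs averaged 53.5 ± 20.2 CPM and KO LT-HSCs 36.7 ± 4.67 CPM (SD, n = 4 each), for a log2 fold change of -0.55 (SE 0.28, adjusted p = 0.285). Without floxed replicate 3 it was -0.76 (SE 0.16, adjusted p = 0.0148), in the fit in which 3875 of 22094 tested genes passed. The neutrophil markers, of a lineage in which Gfi1 acts, showed the same low value in floxed replicate 3, and their sum was 16280 to 50473 CPM in floxed and 24052 to 30657 CPM in KO libraries, with 10 of 11 below 0 and none past the adjusted threshold. None was at 0 in all libraries, and their part in the Gfi1 values was not tested. Reads of Gfi1 may include those of A430072P03Rik, which overlaps it on the other strand and whose total is 6.58% of that of Gfi1.

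**Figure D4:**
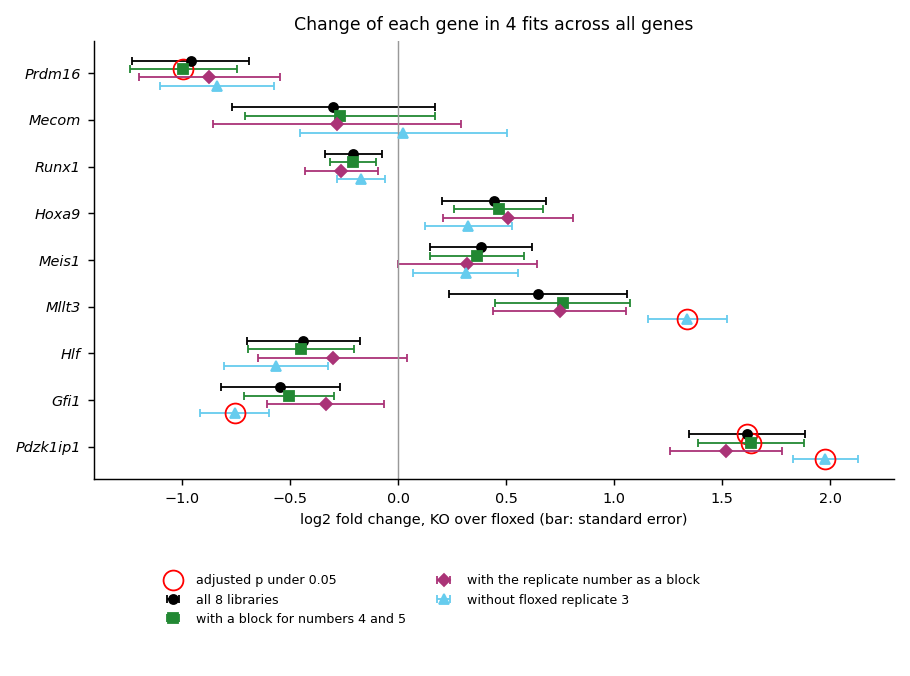
Log2 fold change of each gene, KO over floxed (x axis, bars are standard errors), in 4 fits: all 8 libraries, a block for numbers 4 and 5, the replicate number as a block over 6 libraries, and without floxed replicate 3. Red rings mark an adjusted p under 0.05, reached by 3875 of 22094 tested genes without floxed replicate 3. With the block for numbers 4 and 5, 4059 of 21902 tested genes reached it. Without floxed replicate 3, Pdzk1ip1, Mllt3 and Gfi1 are ringed, and Mecom moves to 0.023.

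Of 21 other transcription regulators of HSCs, 20 passed the filter and none passed the adjusted threshold, with 9 above and 11 below 0. Sox18, a regulator of vessel development, had the largest value, with 0.745 ± 0.554 CPM in floxed LT-HSCs and 2.80 ± 1.12 CPM in KO LT-HSCs (SD, n = 4 each), for a log2 fold change of 1.89 (adjusted p = 0.119). Of all 25 genes within 100 kb of one of the 9 genes that passed the filter, none passed the adjusted threshold. The lowest was Megf6, 40412 bases from Prdm16, at 0.303 to 1.03 CPM in floxed and 0.0355 to 0.254 CPM in KO libraries, a log2 fold change of -2.41 (adjusted p = 0.0753).

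To compare levels between genes, CPM were divided by the length of the spliced transcript in kilobases. In floxed LT-HSCs the order of these levels was Gfi1 at 20.3, Pdzk1ip1 at 19.1, Runx1 at 18.9, Mllt3 at 2.33, Meis1 at 2.30, Hlf at 1.63, Hoxa9 at 0.957, Prdm16 at 0.489 and Mecom at 0.358 CPM per kb. The ranges of the floxed libraries did not overlap between Runx1 and Mllt3, between Meis1 and Hlf, and between Hoxa9 and Prdm16, and all other neighbours overlapped. In KO LT-HSCs Pdzk1ip1 was first at 58.5 CPM per kb, with its range above that of Runx1 at 16.4 CPM per kb. Gfi1 followed at 13.9 CPM per kb, Mllt3 at 3.67, Meis1 at 2.995, Hoxa9 at 1.30, Hlf at 1.20, Mecom at 0.292 and Prdm16 at 0.252 CPM per kb. Prdm16 was thus last in KO LT-HSCs, although its range overlapped that of Mecom. Because introns are counted, genes with long introns gain reads by this scale, and per kilobase of the genomic span Hoxa9, with a span of 4271 bases, followed Gfi1 and Pdzk1ip1 in floxed LT-HSCs at 0.723 CPM per kb, ahead of Runx1 at 0.494 CPM per kb.

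**Figure D5:**
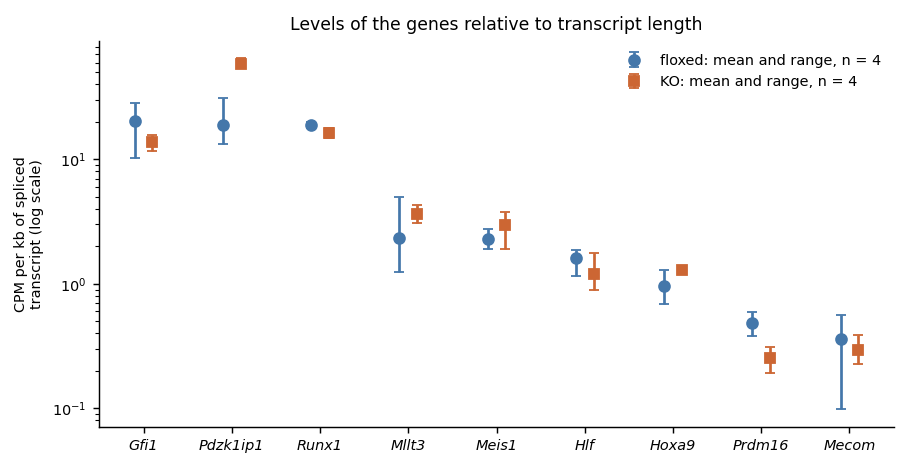
CPM per kilobase of spliced transcript (y axis, log scale) of the 9 genes in floxed (circles) and KO (squares) LT-HSCs, as the mean and the range over 4 libraries each. Pdzk1ip1 is second in floxed LT-HSCs at 19.1 and first in KO LT-HSCs at 58.5 CPM per kb.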

How the data were processed

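Total RNA of LT-HSCs was sequenced, in 4 libraries of floxed and 4 of KO mice, and samples were grouped by genotype label. Per the submitters' processing notes and the methods, reads were checked with FastQC, trimmed with Trim Galore and aligned with Bowtie2 to transcripts of GRCm38/mm10, and the authors deposited an unnormalized read count for each of 138930 Ensembl transcripts. The counting tool is not given in the sources used here. All deposited values are whole-number counts. In 4405 of 4405 pairs of a transcript inside another gene's intron, 2891 on opposite strands, the outer count was nowhere below the inner count, so introns and both strands are counted, which an alignment to spliced transcripts would not give. Transcripts were assigned with GENCODE M21 (138789 found). The count of a gene is that of its transcript with the highest total.

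Genes were filtered with filterByExpr, scaled by TMM and tested with edgeR 4.0.16 (glmQLFit and glmQLFTest, R 4.3.3, Benjamini-Hochberg adjustment). Genes were called at an adjusted p under 0.05, and by the study's thresholds with an absolute log2 fold change above 1.5. The fits were run before use on simulated counts with large planted changes. Those counts had no outlying library and no grouping by number, so they do not test the fits under such conditions. Shares were compared with exact permutation tests over 70 labelings. Alternatives were other scalings, filters and counts, limma-voom (limma 3.58.1), DESeq2 1.42.0, blocks and each library left out. The test of each transcript was added after seeing the data. Python 3.11.15, numpy 2.4.6 and pandas 2.3.3 were used elsewhere.

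Numbers 3, 4 and 5 occur in both genotypes. The deviations of same-numbered libraries from the mean of their genotype were correlated (correlations across genes of 0.427, 0.454 and 0.707). So were those of other pairs within numbers 1 to 3 or within 4 and 5. Results with the replicate number as a block are therefore given where they change a call of a named gene. With the block for numbers 4 and 5, 4059 of 21902 genes passed the adjusted threshold, and results are given for some genes only. Per the methods, each library came from an independent mouse. No label names a batch.

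The 9 genes, the companion lists and the marker lists were chosen with earlier results of these data known. Of each companion list, the genes past the adjusted threshold were named (at most 4, or the largest change where none passed). Marker genes were named after their values were seen, and 1 is not reported here. Smad4, Cbfb, the 5′ part of Prdm16, and the Runx1 transcripts were chosen after their values were seen. Data of aged mice were not analysed here.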

Additional observations from a re-analysis of the deposited data

Results flagged for a closer look

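Floxed replicate 3 lay far from the other 3 floxed libraries in the share of Runx1 reads on the transcript from P1 to just past P2, at 42.5% against 24.7 to 26.98%. It is the library that also stood apart in the marker sums. Dixon's ratio was 0.87, and chance marks about 1 in 20 groups of 4 libraries in this way. Of 24 groups tested, 1 was flagged, where 1.2 are expected by chance.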

How the results depend on the processing

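Across all genes, 261 passed both thresholds, against 503 with DESeq2, 521 with the block for numbers 4 and 5, 44 with the replicate block, and 51 to 857 with each library left out (857 without floxed replicate 3, 51 without floxed replicate 1). With total gene counts as the scaling, the median of all genes shifted to -0.20 and 60 genes were higher and 253 lower, against 99 and 162 with TMM, and with limma-voom 113 were higher and 73 lower. Of the 9 genes, 1 passed the adjusted threshold, against 2 with DESeq2 (Pdzk1ip1 and Prdm16), total gene counts or the block for numbers 4 and 5, 0 with the replicate block or the shortest transcript, and 0 to 3 with each library left out (0 in 7 of these 8 fits, 3 without floxed replicate 3). Over all tested genes, 651 passed the adjusted threshold, against 2447 with DESeq2 and 908 with total gene counts. The number was 4059 with the block for numbers 4 and 5, 48 with the replicate block and 594 with the shortest transcript. It was 3875 without floxed replicate 3 and 61 to 264 with any other library left out. No sign of the 9 genes changed between scalings. With each library left out, the log2 fold change of Mecom ran from -0.60 to 0.023, and its sign reversed without floxed replicate 3. Without overlapping genes only 3 of the 9 were tested. In the order of levels, 9 positions are compared, of which 4 were the same per kilobase of genomic span and 2 in KO LT-HSCs. With the replicate block, which uses the 6 libraries numbered 3 to 5, Pdzk1ip1 lost its call (log2 fold change 1.52), and no other gene of the 9 gained or lost one.

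Counts of 13 to 151 reads limit Mecom and 64 to 271 reads limit Prdm16. Introns and both strands enter every value, so spliced and unspliced RNA cannot be told apart. Libraries number 4 a group, and floxed replicate 3 decides the calls of Mllt3 and Gfi1.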

Other observations

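The other cell type markers gave the following values. The 5 monocyte and macrophage markers summed to 571.5 to 1625 CPM in floxed and 876.2 to 923.2 CPM in KO libraries, and none passed the adjusted threshold of the fit across all genes. Ccr2, a chemokine receptor, had the largest value there, a log2 fold change of -1.02. The 8 T and NK cell markers summed to 68.9 to 93.7 CPM in floxed and 52.8 to 58.7 CPM in KO libraries, and 1 fell, Ncr1, an activating receptor of NK cells, with a log2 fold change of -1.72, where 1.75% of all tested genes passed in this direction. Of the 10 B and plasma cell markers, Cd79a, a signalling chain of the B cell receptor, rose (log2 fold change 0.81) and Jchain fell (log2 fold change -1.66), where 1.22% of all tested genes passed upward and 1.75% downward. With the replicate number as a block the adjusted p-values were 0.122 for Ncr1, 0.150 for Cd79a and 0.138 for Jchain, and these 3 calls were lost. The 6 stromal and endothelial markers summed to 68.1 to 190.7 CPM in floxed and 166.6 to 176.7 CPM in KO libraries, and none passed, with the largest value for Kdr, a receptor for VEGF (log2 fold change 1.65). Floxed replicate 3 gave the highest floxed stromal sum and the lowest floxed monocyte sum.

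The mean pattern of the 8 regulators without Pdzk1ip1 was nearly flat over the libraries, as single regulators went opposite ways and cancelled in the mean. Floxed replicate 3 lay at 0.84 for Mllt3 and 0.61 for Prdm16, but at -0.65 for Gfi1 and -0.50 for Hoxa9. The genes nearest to the mean pattern in centred log2(CPM + 1) were Angel2 (root mean square difference 0.0329), Tpd52l2 (0.0427) and Dnajc1 (0.0498). Their log2 fold changes were -0.04, -0.01 and -0.01, and none passed the adjusted threshold. Pdzk1ip1 lay 0.911 from that mean.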
